A study of Mus musculus with 20 samples.

Results

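Gene expression of dermal LECs, the endothelial cells that line the lymphatic vessels of the skin, was compared between ZT1 ('morning', 1 h after lights on) and ZT13 ('evening', 1 h after lights off), 12 h apart on opposite sides of the light–dark cycle. The members of this comparison were the 5 libraries labeled ZT1 and the 5 labeled ZT13, 10 of the 20 libraries sequenced, chosen by their labels alone. All libraries came from wild type C57BL/6 mice of postnatal day 56, which were C57BL/6N males by the study's methods. They were kept in 12 h of light and 12 h of darkness without any treatment. The other 10 libraries, from ZT7 and ZT19, came from separate pools of mice of the same kind, sorted in the same way, and served only to estimate the spread and as a second pair 12 h apart. Live CD31+podoplanin+ cells were sorted from digested ear skin, with 4 ears of 2 mice in each library, so that every n below is a number of pools. The question was which transcripts of LECs distinguish the morning from the evening.

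Between 5902909 and 8675905 reads were counted on genes at ZT1 and between 4736532 and 42002363 at ZT13, and the deepest library was ZT13 replicate 5. Among uniquely aligned reads, counted on or off annotated genes without ambiguity, 20.2% to 29.5% were on genes at ZT1 and 20.1% to 22.9% in ZT13 replicates 1, 3 and 4. ZT13 replicate 2 (39.7%) and ZT13 replicate 5 (79.9%) stood apart, and fewer genes had a count there (15485 and 13309) than in the other 8 libraries (19055 to 21697). Neither log2 total counts (p = 0.373), nor the log2 odds that such a read was on a gene (p = 0.460), nor genes detected (p = 0.294) passed a two-sided exact permutation test with 5 libraries each, which can reach 0.00794 at the lowest, and each adjusted p over these 3 tests was 0.460. Lymphatic identity was present in all 10 libraries. Prox1, the transcription factor that sets lymphatic fate, ranged from 2140 to 4490 normalized counts, that is, counts divided by the relative effective size of the library. Lyve1 (hyaluronan receptor) ranged from 9754 to 26809, Pdpn (podoplanin) from 1018 to 3926 and Pecam1 (CD31) from 3199 to 5821. Ccl21a, the chemokine of lymphatic vessels that draws dendritic cells, had 0 counts in these libraries, as did the gene symbols Ccl21b and Ccl21c, near-identical copies among which the counting may not assign reads, and they were not tested.

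Time of day reaches a tissue through at least these routes. In the cell-autonomous clock, the activators BMAL1 (gene Arntl) and CLOCK bind E-boxes and drive their own repressors, the period and cryptochrome genes. The nuclear receptors REV-ERB and ROR act on ROR elements, as in Arntl, and the PAR bZIP factors DBP, TEF and HLF act on D-boxes. A systemic route runs through glucocorticoids, adrenal hormones that in mice, which are active at night, peak around the onset of darkness and act through glucocorticoid response elements.

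To show where such letters lie, the promoter windows of 5 of the genes named below are given, each of which holds a match. For Arntl the window with the match was taken, so the 5 do not stand for the genes that differed. The windows run from 250 bases before to 50 bases after the RefSeq transcription start (build GRCm38.p6). They read 5′ to 3′ on the strand of the gene, with each match in capitals. The glucocorticoid response element was searched as GNACANNNTGTNC, the E-box as CACGTG, the D-box as TTATGTAA and the ROR element as ANNTAGGTCA, on both strands. A match is a description of letters, not of a site in use.
Slc10a6 (chr5:103629354-103629653, minus strand, glucocorticoid response element at −163): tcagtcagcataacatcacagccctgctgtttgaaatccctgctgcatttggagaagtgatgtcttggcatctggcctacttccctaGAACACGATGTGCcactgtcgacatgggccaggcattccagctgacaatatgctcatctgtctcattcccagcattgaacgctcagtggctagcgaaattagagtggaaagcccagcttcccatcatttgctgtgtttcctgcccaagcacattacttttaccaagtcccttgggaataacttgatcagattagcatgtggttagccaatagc
Fkbp5 (chr17:28486100-28486399, minus strand, E-box at −169): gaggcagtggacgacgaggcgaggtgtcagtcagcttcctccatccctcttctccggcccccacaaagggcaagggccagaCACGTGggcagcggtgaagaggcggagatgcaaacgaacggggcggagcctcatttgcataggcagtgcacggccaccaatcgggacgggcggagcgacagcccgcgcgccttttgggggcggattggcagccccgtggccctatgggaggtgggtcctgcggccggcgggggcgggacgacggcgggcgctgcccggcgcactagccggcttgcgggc
Arntl (chr7:113207261-113207560, plus strand, ROR element at 27): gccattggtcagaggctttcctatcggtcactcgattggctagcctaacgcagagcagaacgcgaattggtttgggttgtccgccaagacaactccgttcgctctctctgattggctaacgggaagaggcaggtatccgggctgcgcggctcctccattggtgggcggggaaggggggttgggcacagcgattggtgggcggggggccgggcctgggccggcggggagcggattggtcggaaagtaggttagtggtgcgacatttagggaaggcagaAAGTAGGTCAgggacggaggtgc
Ciart (chr3:95882179-95882478, minus strand, E-boxes at −116, −58 and −44): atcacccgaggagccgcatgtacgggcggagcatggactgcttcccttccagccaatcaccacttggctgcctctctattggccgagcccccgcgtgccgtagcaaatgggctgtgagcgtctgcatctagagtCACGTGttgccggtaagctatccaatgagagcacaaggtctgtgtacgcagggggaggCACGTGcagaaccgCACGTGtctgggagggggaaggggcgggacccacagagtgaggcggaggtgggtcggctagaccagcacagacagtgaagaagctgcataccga
Per3 (chr4:151044616-151044915, minus strand, D-boxes at −205 and −158): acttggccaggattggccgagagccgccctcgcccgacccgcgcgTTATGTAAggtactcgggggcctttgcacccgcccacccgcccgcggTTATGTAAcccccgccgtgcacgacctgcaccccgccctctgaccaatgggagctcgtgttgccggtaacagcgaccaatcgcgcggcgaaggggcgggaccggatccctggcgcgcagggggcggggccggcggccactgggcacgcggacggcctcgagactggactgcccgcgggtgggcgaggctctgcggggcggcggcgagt
The glucocorticoid response element occurred in 0.537% of the 27025 genes with a promoter window, and among the 16 glucocorticoid-responsive genes with one in Mt1, Sgk1 and Slc10a6. The E-box occurred in 8.09% of genes, in 5 of the 17 core clock genes with a window (Bhlhe41, Ciart, Cry1, Per1 and Tef), and in 4 of the 16 glucocorticoid-responsive genes (Dusp1, Fkbp5, Il1r2 and Sgk1). The D-box occurred in 1.11% of genes and among the clock genes only in Per3, and the ROR element in 0.829% of genes and among the clock genes only in Arntl. Symbols without a window in the table, among them Cebpd, Per2 and Zbtb16, could not be searched.

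Of 19209 genes tested, 4 (0.0208%) differed between ZT13 and ZT1 at an adjusted p under 0.05 (quasi-likelihood F-test of edgeR, Benjamini-Hochberg adjusted over all genes tested, as for every adjusted p of a gene here). Slc10a6, Fkbp5 and Cebpd rose from morning to evening (0.0156% of genes), and Top2a fell (0.00521%). DESeq2 called 77 genes, 52 higher and 25 lower at ZT13, and these included the same 4. The edgeR count was 0 without ZT1 replicate 2, ZT1 replicate 4, ZT1 replicate 5 or ZT13 replicate 5, and in those fits 790, 1135, 749 and 833 genes had an unadjusted p under 0.05. It was 2 without ZT1 replicate 3 or ZT13 replicate 2, 1 without ZT13 replicate 4 and 7 without ZT1 replicate 1. With the 2 libraries that stood apart, ZT13 replicates 2 and 5, both left out, no gene was called and 778 had an unadjusted p under 0.05. Each of the 4 genes kept its direction there and in all 24 alternatives run. Those fits share most of their libraries, and uncalled genes such as Lyve1 and Cry1 also kept theirs in all 24. A kept direction is therefore no separate support for the 4. With the log2 odds that a read was on a gene as a covariate, 3 of the 4 were called. With the replicate number as a block only Slc10a6 was called, and Fkbp5, Cebpd and Top2a had adjusted p of 0.0694, 0.0775 and 0.199. In a fit of the 10 libraries alone with that block, 0 genes were called.

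Slc10a6 (sodium-dependent transporter of sulfated steroid hormones; chr5:103605711-103629403) had 595, 443, 525, 370 and 333 normalized counts in the ZT1 libraries and 1721, 2384, 1896, 1443 and 3185 in the ZT13 libraries, in replicate order. All ZT13 libraries were above all ZT1 libraries, and the lowest evening value exceeded the highest morning value by more than the whole morning range. The log2 fold change was 2.23 ± 0.35 (SE), or 4.69-fold (adjusted p = 0.0124). With ZT13 replicates 2 and 5 left out the log2 fold change was 1.88 (adjusted p = 0.407).

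Fkbp5 (co-chaperone that lowers the hormone affinity of the glucocorticoid receptor and is itself induced by it; chr17:28399094-28517527) had 430, 490, 320, 347 and 448 normalized counts at ZT1 and 1248, 1401, 1101, 1725 and 2296 at ZT13. The groups did not overlap, and the difference was 1.93 ± 0.33 on the log2 scale, 3.82-fold (adjusted p = 0.0166). Cebpd (the transcription factor C/EBPδ, an early hormone and stress response gene; chr16:15887286-15891031) had 739, 825, 889, 706 and 618 at ZT1 and 1526, 3876, 1563, 3250 and 3526 at ZT13. Here ZT13 replicates 1 and 3 were near each other and lower than the other three evening libraries, yet above every morning library. Its log2 fold change was 1.86 ± 0.32, 3.64-fold (adjusted p = 0.0166). Exons of Cebpd overlap those of Spidr, and the library kit does not mark strand, so that part of its reads may belong to that gene. Without ZT13 replicates 2 and 5 the log2 fold changes were 1.73 for Fkbp5 and 1.47 for Cebpd (adjusted p = 0.496 and 0.513).

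Top2a (DNA topoisomerase of dividing cells; chr11:98992943-99024189) had 635, 2716, 2633, 1105 and 1523 normalized counts at ZT1 and 338, 95.4, 202, 487 and 361 at ZT13. The morning values were spread widely, with replicates 2 and 3 highest and replicate 1 lowest, but none was as low as an evening value. The log2 fold change was −2.53 ± 0.47, and expression was 5.79-fold higher at ZT1 (adjusted p = 0.0477). Leaving out any single ZT1 or ZT13 library other than ZT1 replicate 1 ended this call, with adjusted p up to 0.228, while the log2 fold change stayed between −2.79 and −2.24.

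**Figure D1:**
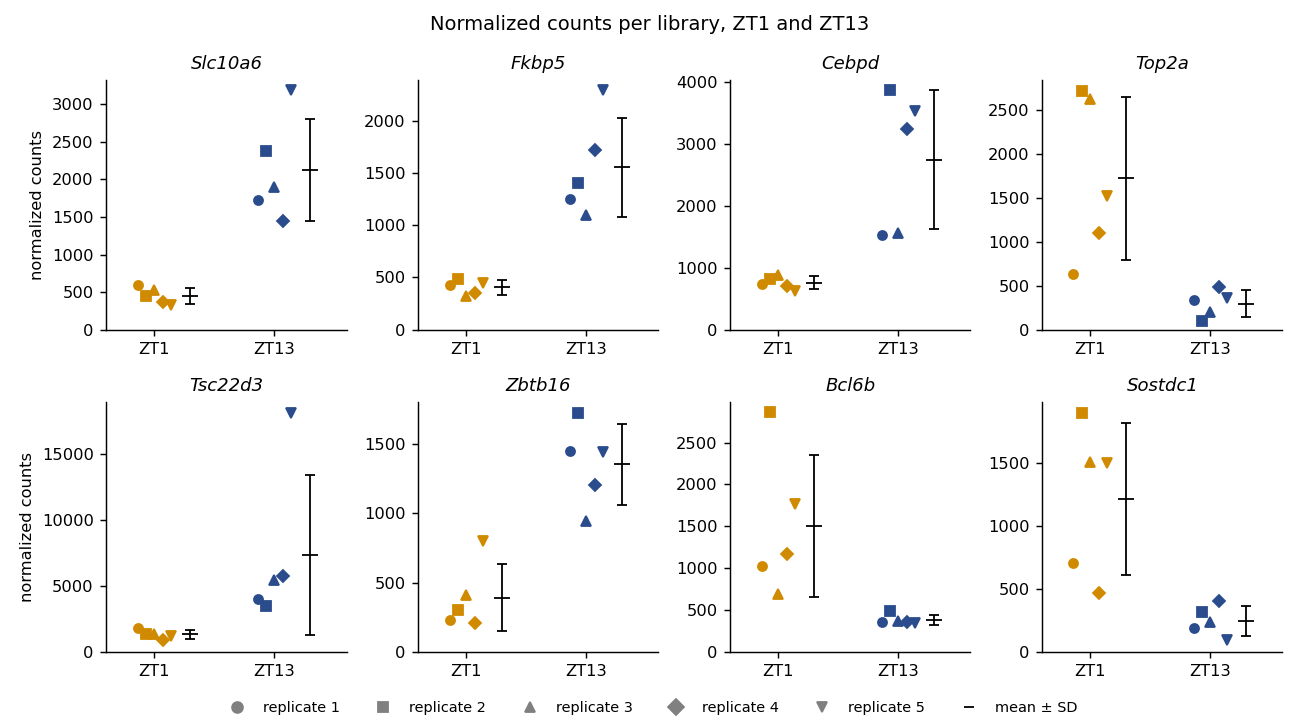
Normalized counts (vertical axes, starting at 0) of 8 genes in each of the 5 ZT1 and 5 ZT13 libraries, with a marker shape per replicate number and the mean ± SD beside them. In all 8 genes the ZT1 and ZT13 libraries do not overlap; Slc10a6, Fkbp5, Cebpd and Top2a passed the adjusted p by edgeR, whereas Tsc22d3, Zbtb16, Bcl6b and Sostdc1 did not.

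At an unadjusted p under 0.05, 1032 genes differed (5.37% of those tested), of which 294 were higher at ZT13 (1.53%) and 738 lower (3.84%). This split depends on scaling, since it was 458 and 572 with edgeR's RLE and 577 and 423 with upper-quartile normalization. The median log2 fold change of all genes moved accordingly from −0.06 to 0.04 and 0.11. The 5 libraries of one time point lay entirely above those of the other in 283 genes (1.47%), 94 higher at ZT13 (0.489%) and 189 higher at ZT1 (0.984%). Of those with a mean of at least 50 normalized counts, the 10 with the smallest p in each direction are described here, apart from the 4 genes above. None of these 16 passed the adjusted p in the edgeR fit reported here, whereas DESeq2 called 15 of them, RLE and upper-quartile scaling 5 each, and edgeR without ZT1 replicate 1 called 3. Bcl6b was called in 7 of 24 alternatives, and Sostdc1, Tsc22d3, Spsb1 and Zbtb16 in 5 each.

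Higher in every evening library were Tsc22d3, which encodes the glucocorticoid-induced leucine zipper protein GILZ, Zbtb16, which encodes the transcription factor PLZF, Zfp36, which encodes tristetraprolin, a protein that destabilizes cytokine mRNA, and Pmaip1, which encodes the proapoptotic protein NOXA. Tsc22d3 had 1833, 1381, 1379, 907 and 1209 normalized counts at ZT1 and 3975, 3512, 5457, 5734 and 18102 at ZT13. ZT13 replicate 5 was more than 3 times the next library, and the log2 fold change was 2.45 ± 0.50 (adjusted p = 0.0958). Zbtb16 had 227, 300.3, 414, 209 and 800 at ZT1 and 1448, 1726, 942, 1207 and 1442 at ZT13 (1.80 ± 0.38, adjusted p = 0.114). Pmaip1 had 58.4, 48.6, 57.1, 57.3 and 23.9 at ZT1 and 149, 323, 363, 290 and 1315 at ZT13 (3.31 ± 0.70, adjusted p = 0.114). Its evening values were uneven, with ZT13 replicate 5 again highest, whereas Zfp36 was steadier, at 912 to 1562 in the morning and 2249 to 4245 in the evening (1.41 ± 0.32, adjusted p = 0.181). Spsb1, an adaptor of a ubiquitin ligase, ranged from 718 to 996 at ZT1 and from 1668 to 3675 at ZT13 (1.58 ± 0.33, adjusted p = 0.114). Mid1, a microtubule-associated ubiquitin ligase, was between 28.5 and 51.1 at ZT1 and between 153 and 1148 at ZT13, with its highest value in replicate 4 and the other four evening libraries at 153 to 199 (adjusted p = 0.257). The transcript 9530077C05Rik ranged from 62.3 to 191 and from 202 to 1070 (2.40 ± 0.55, adjusted p = 0.203).

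Higher in every morning library were Bcl6b, a transcriptional repressor of endothelial cells, and Sostdc1, a secreted antagonist of BMP and Wnt signaling. Bcl6b had 1021, 2859, 695, 1168 and 1765 normalized counts at ZT1 and 359, 492, 371, 353 and 338 at ZT13. The evening values were nearly level and the morning values were not (log2 fold change −1.97 ± 0.38, adjusted p = 0.0617). Sostdc1 had 705, 1896, 1508, 464 and 1499 at ZT1 and 189, 319, 234, 401 and 94.4 at ZT13 (−2.30 ± 0.46, adjusted p = 0.0866). Genes of the cytoskeleton were Tuba1c, an α-tubulin (254 to 1189 in the morning, 57.5 to 209 in the evening, adjusted p = 0.181), and Clip1, a protein of microtubule plus ends (770 to 2672 against 238 to 658, adjusted p = 0.241). Genes of squamous epithelium were Sfn, Capns2 and Ripk4. Sfn (stratifin) ranged from 416 to 1251 at ZT1 and from 58.7 to 284 at ZT13 (adjusted p = 0.257). Capns2, a calpain subunit, ranged from 64.7 to 993 and from 25.6 to 51.3 (adjusted p = 0.114), and Ripk4, a kinase of keratinocyte differentiation, from 263 to 1652 and from 41.5 to 192 (adjusted p = 0.279). Fst (follistatin, which binds activin) was carried by 1 library, with 1686 normalized counts in ZT1 replicate 5 against 104 to 149 in the other morning libraries and 23.8 to 81.6 in the evening (adjusted p = 0.238). Urm1, a ubiquitin-like protein of tRNA thiolation, ranged from 284 to 821 at ZT1 and from 109 to 218 at ZT13 (adjusted p = 0.181).

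Glucocorticoid-responsive transcripts had a median log2 fold change of 0.88 over its 20 members against −0.06 over all genes tested. Of the 20, 9 were higher at ZT13 at an unadjusted p under 0.05 and 1 lower (1.53% and 3.84% of all genes), 8 had evening libraries wholly above the morning libraries (0.489%), and 3 passed the adjusted p (Slc10a6, Fkbp5 and Cebpd). Like every list here, this one was drawn up with earlier results of these data known. Its counts therefore describe the members and are not a separate test. Without ZT13 replicates 2 and 5 the unadjusted counts were 8 and 1, and the median was 0.38, below those of the core clock (0.48) and of leukocyte markers (1.09) in the same fit. Among the members beyond those already given, Dusp1, Errfi1 and Ddit4 were singled out after their values were seen, since their groups did not overlap. Dusp1, a phosphatase that inactivates MAP kinases, had 2704 to 4119 normalized counts at ZT1 and 4463, 9734, 5296, 7051 and 25685 at ZT13 (1.74 ± 0.48, adjusted p = 0.460). Errfi1, a feedback inhibitor of the EGF receptor, was the most even of these, at 1028 to 1679 in the morning and 2744 to 3484 in the evening (1.18 ± 0.31, adjusted p = 0.370). Ddit4, an inhibitor of mTOR signaling also known as REDD1, ranged from 366 to 1156 and from 1279 to 3072 (1.58 ± 0.47, adjusted p = 0.497). The member that was lower at an unadjusted p under 0.05 was Aldh3a1, an aldehyde dehydrogenase, with 2000 to 3558 normalized counts at ZT1 and 754 to 2034 at ZT13 (−1.21 ± 0.34, adjusted p = 0.479). The metallothioneins Mt1 and Mt2, other hormone-responsive genes, had log2 fold changes of −0.75 and −1.05.

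None of the 20 core clock genes passed the adjusted p by edgeR, and DESeq2 called 2, Per3 and Dbp. At an unadjusted p under 0.05 by edgeR, 7 were higher at ZT13 and 3 lower, against 1.53% and 3.84% of all genes. The 7 belonged to the repressor arm and the PAR bZIP factors, and the 3 were Arntl, Rora and Bhlhe41. The libraries of the groups did not overlap for 3 genes higher at ZT13 (Per2, Per3 and Dbp) and 1 lower (Arntl), against 0.489% and 0.984% of all genes. Without ZT13 replicates 2 and 5 the counts at the unadjusted p were 4 and 2, and without ZT1 replicate 5 they were 5 and 1.

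Of the activators, Arntl (BMAL1; chr7:113207465-113314126) had 377, 196, 322, 452 and 596 normalized counts at ZT1 and 116, 12.7, 194, 59.7 and 177 at ZT13. The lowest morning value (replicate 2) and the highest evening value (replicate 3) nearly met. The log2 fold change was −1.79 ± 0.53 (unadjusted p = 0.00213, adjusted p = 0.487), and it lay between −2.04 and −1.40 in all other fits. Its partner Clock ranged from 1046 to 2299 at ZT1 and from 324 to 1259 at ZT13 (−0.72 ± 0.36, adjusted p = 0.934). Npas2, which can replace CLOCK, was at 45.1 to 88.6 in the morning and at 0 to 147 in the evening, with the 0 in ZT13 replicate 5.

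Of the repressors, Per2 had 325, 166, 88.7, 286 and 57.5 normalized counts at ZT1 and 482, 344, 557, 453 and 564 at ZT13 (1.37 ± 0.52, adjusted p = 0.680). Per3 had 905, 783, 1153, 684 and 984 and then 1874, 2661, 1480, 1196 and 1509 (0.95 ± 0.30, adjusted p = 0.532). Both were higher in every evening library. Per1 was higher in replicates 1 to 4 of ZT13 (1037 to 2218) than in any ZT1 library (413 to 860), but not in replicate 5 (385), which gave 0.87 ± 0.41 (adjusted p = 0.891). The cryptochromes, which join the period proteins, showed no such separation, with 0.30 ± 0.45 for Cry1 and 0.09 ± 0.40 for Cry2 (adjusted p = 1.0 for both). Ciart, a repressor of BMAL1–CLOCK whose promoter window holds 3 E-boxes, had 178, 109, 46.6, 34.0 and 141 at ZT1 and 137, 454, 93.2, 320 and 462 at ZT13. ZT13 replicates 2, 4 and 5 were above all morning libraries and replicates 1 and 3 were not (1.53 ± 0.56, adjusted p = 0.658). The E-box binding repressors Bhlhe40 (DEC1) and Bhlhe41 (DEC2) had opposite signs, at 0.86 ± 0.39 and −1.16 ± 0.54 (adjusted p = 0.866 and 0.891).

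Of the output factors that bind D-boxes, Dbp had 246, 305, 211, 203 and 220 normalized counts at ZT1 and 411, 385, 440, 482 and 565 at ZT13, a narrow range in both groups without overlap (0.95 ± 0.31, adjusted p = 0.582). Its exons overlap those of Sphk2. Tef ranged from 1039 to 2216 and from 1890 to 3598 (0.76 ± 0.32, adjusted p = 0.772), whereas Hlf had −0.33 ± 0.42 and Nfil3, which represses through the same element, 0.37 ± 0.43 (adjusted p = 1.0 for both). Of the nuclear receptors, Nr1d1 (REV-ERBα) had −0.08 ± 0.33 (adjusted p = 1.0) and Nr1d2 (REV-ERBβ) 0.65 ± 0.32 (adjusted p = 0.940). Rora had 615, 970, 653, 525 and 1959 at ZT1 and 403, 226, 785, 639 and 273 at ZT13, so the groups overlapped (−1.02 ± 0.41, adjusted p = 0.740). Rorb was at 0.04 ± 1.19, a value resting on 628 normalized counts in ZT13 replicate 4 and none in replicate 5.

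**Figure D2:**
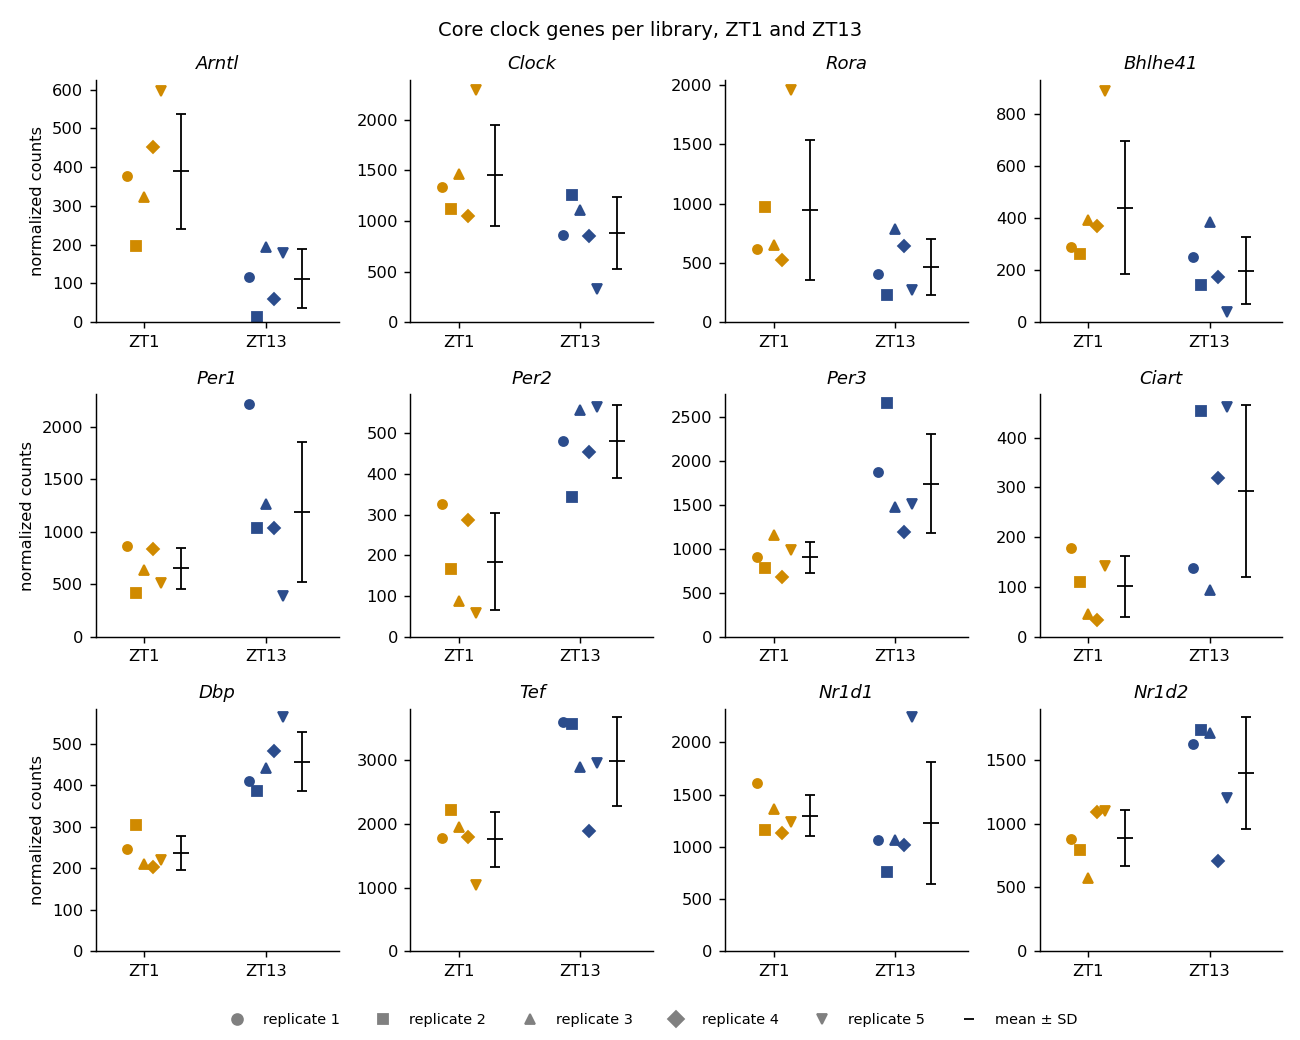
Normalized counts (vertical axes, starting at 0) of 12 core clock genes in each of the 5 ZT1 and 5 ZT13 libraries, with a marker shape per replicate number and the mean ± SD. The 2 groups do not overlap for Arntl (higher at ZT1) and for Per2, Per3 and Dbp (higher at ZT13), and overlap in the other 8 panels.

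Immediate early genes, which respond within minutes to growth factors, stress and tissue handling, had a median log2 fold change of 0.44 over 23 members tested (0.26 without ZT13 replicate 5), with 8 higher and 0 lower at ZT13 at an unadjusted p under 0.05 (1.53% and 3.84% of all genes), and 0 at the adjusted p by edgeR and 4 by DESeq2. Without ZT13 replicates 2 and 5 the counts were 7 and 0, of 24 tested, and without ZT1 replicate 1 they were 5 and 0. Fos had 2788, 8299, 4517, 3982 and 5785 normalized counts at ZT1 and 9328, 14585, 9156, 14370 and 15529 at ZT13, so that its libraries did not overlap (1.31 ± 0.35, adjusted p = 0.448). Junb, its dimer partner, had 1470 to 3239 and 3012, 6207, 3999, 7605 and 17869 (1.75 ± 0.47, adjusted p = 0.422), and Btg2, an antiproliferative gene, 2183 to 4202 and 3195 to 11449 (1.13 ± 0.38, adjusted p = 0.582). Both were highest in ZT13 replicate 5, and both overlapped between groups.

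In the list of lymphatic growth and flow signaling, 4 of 36 genes were higher and 2 lower at ZT13 at an unadjusted p under 0.05, against 1.53% and 3.84% of all genes. The number lower was 1 without ZT1 replicate 2, ZT1 replicate 5, ZT13 replicate 3 or ZT13 replicate 5. The counts higher and lower were 2 and 2 without ZT13 replicates 2 and 5, and 0 and 3 with scores of keratinocyte and fibroblast markers as covariates. The transcription factors Klf2, which responds to shear stress in endothelium, and Klf6 were higher in every evening library. Klf2 had 2193, 3345, 2205, 2840 and 3348 normalized counts at ZT1 and 3657, 11697, 4980, 6064 and 4201 at ZT13 (1.14 ± 0.40, adjusted p = 0.643). Klf6 ranged from 3143 to 3882 and from 4807 to 16407 (1.32 ± 0.37, adjusted p = 0.471). Id3, a target of BMP signaling, overlapped through ZT13 replicate 1 (1.10 ± 0.36, adjusted p = 0.582). Smad7, the inhibitor of TGF-β signaling, had the lowest log2 fold change of the list (−2.94 ± 1.01, adjusted p = 0.628). With 1 library left out it lay between −3.93 and −1.60. Its normalized counts were 154 to 283 in ZT1 replicates 1 to 4, 1719 in ZT1 replicate 5, and 0 to 192 at ZT13.

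Cell-cycle genes were lower in the evening by their values, with a median log2 fold change of −0.67 over 25 members, of which 2 were above 0 against 46.2% of all genes. At an unadjusted p under 0.05, 5 were lower and 0 higher (3.84% and 1.53% of all genes), 3 had morning libraries wholly above the evening ones (0.984%), and Top2a alone passed the adjusted p. Tpx2, a spindle assembly factor, had 183, 537, 678, 241 and 386 normalized counts at ZT1 and 127, 79.5, 79.3, 172 and 37.1 at ZT13 (−2.04 ± 0.56, adjusted p = 0.452). Ccnb1 (cyclin B1) had 288, 503, 448, 320 and 560 at ZT1 and 208, 5.30, 17.9, 87.4 and 228 at ZT13 (−1.94 ± 0.70, adjusted p = 0.658). Mki67, the proliferation antigen Ki-67, overlapped through ZT13 replicate 1, with 876 to 1857 against 220 to 1064 (−1.42 ± 0.41, adjusted p = 0.487). Ccna2 (cyclin A2) overlapped through ZT1 replicate 5, with 134 to 597 against 52.0 to 236 (−1.55 ± 0.50, adjusted p = 0.540). The summed normalized counts of the list ranged from 9345 to 16222 at ZT1 and from 4606 to 8424 at ZT13. In sorted bulk cells, fewer dividing LECs, fewer dividing cells of other types and less RNA per cell cannot be told apart. The unadjusted counts were 5 and 0 without ZT13 replicates 2 and 5, and 8 and 0 without ZT13 replicate 4. The median was −0.40 without ZT13 replicate 3 and −1.08 without ZT13 replicate 4.

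Markers of keratinocytes and fibroblasts, skin cells outside the CD31+podoplanin+ gate, were lower at ZT13 by their medians, as the cell-cycle genes were. Keratinocyte markers had a median of −1.31, with 0 of 16 above 0, 9 lower at ZT13 at an unadjusted p under 0.05 (3.84% of all genes) and 7 without overlap between groups (0.984%). None passed the adjusted p by edgeR, and DESeq2 called 5. Their summed normalized counts were 39871 to 78687 at ZT1 and 12018 to 35365 at ZT13, and no marker of this list was at 0 in either group. Krt5, a keratin of basal epidermis, had 8079, 14858, 14876, 10737 and 9480 normalized counts at ZT1 and 5640, 1456, 4681, 3444 and 1261 at ZT13 (−1.82 ± 0.45, adjusted p = 0.305). Its partner Krt14 had 10695, 30238, 22524, 16097 and 19070 and then 7342, 2936, 11272, 10308 and 4387, and overlapped only through ZT1 replicate 1 and ZT13 replicate 3 (−1.44 ± 0.47, adjusted p = 0.547). Krt79, a keratin of hair follicle and gland ducts, did not overlap, with 1933 to 3493 in the morning and 587 to 1507 in the evening (−1.57 ± 0.38, adjusted p = 0.279), nor did the desmosomal cadherin Dsg1a, with 132 to 364 and 2.12 to 81.3 (−2.69 ± 0.67, adjusted p = 0.290). The lowest sums of the list at ZT13 were those of replicates 2 and 5, and without these libraries 5 markers were lower at the unadjusted p and the median was −0.93.

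Fibroblast markers had a median of −0.92 over 16 members, with 5 lower and 0 higher at the unadjusted p (3.84% and 1.53% of all genes), and sums of 9881 to 27052 at ZT1 and 2596 to 11568 at ZT13. The number lower was 3 without ZT1 replicate 1 or ZT13 replicate 2, 1 without ZT13 replicate 3, and 2 without ZT13 replicate 4 or without ZT13 replicates 2 and 5, and the median was −0.58 without ZT1 replicate 1 and −1.50 without ZT13 replicate 1. Col6a2, a collagen chain of dermal fibroblasts, had 1907, 931, 744, 642 and 1432 normalized counts at ZT1 and 744, 13.8, 238, 124 and 174 at ZT13 (−2.13 ± 0.86, adjusted p = 0.741), whereas Col1a1 had −0.09 ± 0.79 (adjusted p = 1.0). Ccdc80, a secreted matrix protein, ranged from 1144 to 2744 and from 309 to 1395 (−1.43 ± 0.49, adjusted p = 0.628), and Fbn1 (fibrillin, of microfibrils) from 1667 to 3743 and from 852 to 2171 (−0.90 ± 0.37, adjusted p = 0.741). Col6a1, on which Col6a2 depends for assembly, was at 570 to 3011 and 131 to 883 (−1.59 ± 0.66, adjusted p = 0.771). Of the basement membrane and matrix genes, 3 of 27 were lower at the unadjusted p and 1 higher, against 3.84% and 1.53% of all genes, and 0 were higher without ZT1 replicate 5 or ZT13 replicate 5. Among them Sparc, a matrix glycoprotein that endothelial cells and fibroblasts both make, had 15046, 20669, 7840, 4047 and 16709 at ZT1 and 5065, 1689, 2033, 3917 and 3527 at ZT13, overlapping through ZT1 replicate 4 (−1.99 ± 0.48, adjusted p = 0.279), and Col4a1, a collagen of basement membranes, 2897 to 6133 and 1262 to 2581 (−0.93 ± 0.37, adjusted p = 0.740).

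The part of these marker levels in the other results was not tested beyond 1 fit that held scores of both marker lists as covariates, under which edgeR called 0 genes and 1552 had an unadjusted p under 0.05. Under that fit Slc10a6, Fkbp5 and Cebpd had log2 fold changes of 1.88, 1.51 and 1.30 and Top2a of −1.87 (adjusted p = 0.614 for each). At an unadjusted p under 0.05 that fit had 875 genes higher and 677 lower of all 19209 tested, more of them higher than in the main fit. Among these were 7 glucocorticoid-responsive genes higher and 0 lower, and 2 clock genes higher and 1 lower. There were also 4 immediate early genes higher and 1 lower, and 1 cell-cycle gene lower. Blood endothelial markers had a median of 0.23 (−0.07 without ZT13 replicate 1, 0.51 without ZT13 replicate 3 and 0.35 without ZT13 replicate 5), with 8 of 14 above 0 and 2 higher at the unadjusted p, against 1.53% of all genes. The number higher was 1 without any one of the ZT1 libraries or without ZT13 replicate 2, 3 without ZT13 replicate 3, and 0 without ZT13 replicates 2 and 5, and 1 gene was lower without ZT1 replicate 3, ZT1 replicate 4 or ZT13 replicate 1. Their sum was 11985 to 23219 at ZT1 and 16499 to 41723 at ZT13, with Plvap, a protein of fenestrated endothelium, at 975 to 2562 and 1368 to 7255 (1.28 ± 0.43, adjusted p = 0.582) and Vwf (von Willebrand factor) at 172 to 257 and 65.4 to 457. Cd300lg, a sialomucin of capillary and venular endothelium, stood apart in ZT13 replicate 2 (7938). The other evening libraries had 1562 to 2267 and the morning libraries 1507 to 2122. Its log2 fold change was 0.82 ± 0.39 (adjusted p = 0.913), and between 0.14 and 1.14 with 1 library left out. Ly6c1, a surface antigen of blood capillaries, had the lowest value of the list (−2.34 ± 1.19, adjusted p = 0.951). Leukocyte markers had a median of 0.55 (0.29 without ZT13 replicate 1, 0.31 without ZT13 replicate 3, 0.33 without ZT1 replicate 5 and 1.09 without ZT13 replicates 2 and 5), with 11 of 16 above 0 and 0 past the unadjusted p, and sums of 933 to 1513 at ZT1 and 561 to 1273 at ZT13. Ptprc (CD45) was at 43.3 to 255 and at 0 to 181, with −0.94 ± 1.38, and the highest value was that of S100a8, a calcium-binding protein of neutrophils, at 3.06 ± 2.38 with mean normalized counts of 1.81 and 19.5. The hemoglobin symbols Hbb-bs, Hbb-bt, Hba-a1 and Hba-a2 had 0 counts in these libraries.

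**Figure D3:**
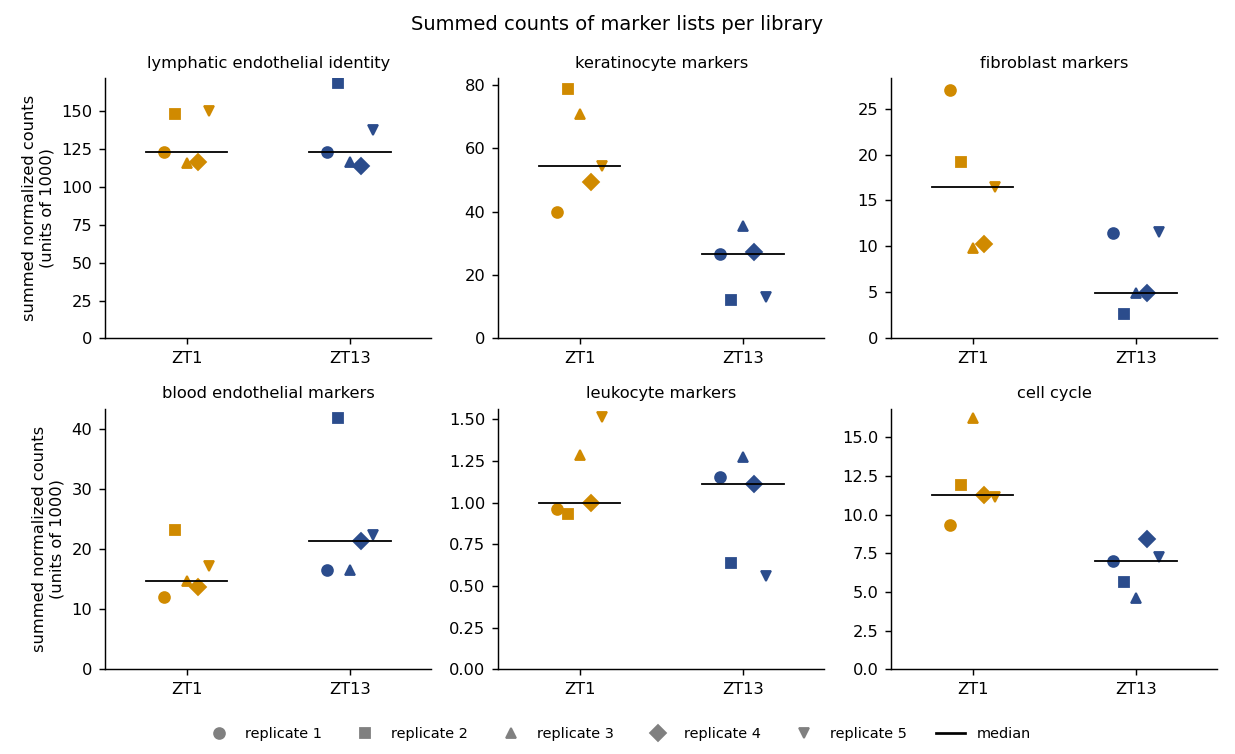
Summed normalized counts (vertical axes in units of 1000, starting at 0) of 6 gene lists in each library of ZT1 and ZT13, with a marker shape per replicate number and a line at the median of 5. The groups do not overlap for keratinocyte markers and cell-cycle genes, both lower at ZT13, and overlap for the other 4 lists.

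Genes of lymphatic endothelial identity had a median log2 fold change of 0.02 over 20 genes (−0.10 without ZT13 replicate 2 and 0.27 without ZT13 replicate 3). At the unadjusted p, 1 was lower and 0 higher, against 3.84% and 1.53% of all genes. Their sums were 116165 to 150326 at ZT1 and 114056 to 169046 at ZT13. Prox1 had −0.25 ± 0.32, Lyve1 −0.47 ± 0.44, Pdpn −0.30 ± 0.47, Pecam1 −0.03 ± 0.30 and Mmrn1, a secreted protein of lymphatic endothelium, 0.58 ± 0.41 (adjusted p = 1.0 for each). Nrp2, the co-receptor for VEGF-C, had 2157, 6839, 2759, 2205 and 4633 normalized counts at ZT1 and 1587, 2617, 1347, 2924 and 914 at ZT13 (−0.99 ± 0.41, adjusted p = 0.772). Of 26 genes of leukocyte entry and endothelial junctions, 2 were lower and 0 higher at the unadjusted p, against 3.84% and 1.53% of all genes. The number lower was 0 without ZT1 replicate 5 or ZT13 replicate 3, 1 without ZT1 replicate 2, ZT1 replicate 3, ZT13 replicate 1 or ZT13 replicate 2, and 0 with upper-quartile scaling. The 2 were Alcam, an adhesion molecule for activated leukocytes (−1.79 ± 0.85, adjusted p = 0.903), which was uneven in the morning (167 to 1340) and at 0 in ZT13 replicate 5, and Enpp2, which encodes autotaxin, the enzyme that makes lysophosphatidic acid (594 to 1897 against 530 to 1208, −0.84 ± 0.37, adjusted p = 0.828). F11r, which encodes the junction molecule JAM-A, had 3004 to 4370 normalized counts at ZT1 and 2151 to 9345 at ZT13 (0.31 ± 0.37, adjusted p = 1.0), and Cdh5 (VE-cadherin) −0.14 ± 0.45 (adjusted p = 1.0). F11r kept its sign in 19 of 24 alternatives and Cdh5 in 17. With 1 library left out F11r lay between −0.15 and 0.70. Standard errors were 0.30 to 0.47 for these genes, Alcam apart, and a change well above its standard error could still go undetected. Nrp2, at −0.99 ± 0.41, did not pass the adjusted p.

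Of the heat-shock and cold-inducible genes, 1 of 19 was lower at the unadjusted p, against 3.84% of all genes (3 without ZT1 replicate 1, ZT1 replicate 4 or ZT13 replicate 2, and 0 without ZT13 replicate 3), the mitochondrial chaperone Hspd1, with 1134 to 1688 normalized counts at ZT1 and 577 to 881 at ZT13 (−0.88 ± 0.31, adjusted p = 0.654). Of the redox genes, 1 of 21 was lower, against 3.84% of all genes (2 without ZT1 replicate 1 or ZT13 replicate 2, 3 without ZT1 replicate 4 or ZT13 replicate 5, and 0 without ZT13 replicate 3). It was Cat (catalase), with 1815 to 2991 and 1153 to 1583 (−0.80 ± 0.32, adjusted p = 0.740). Txnip, which inhibits thioredoxin, was higher in every evening library at 12300 to 19371 against 6041 to 11603 (0.78 ± 0.40, adjusted p = 0.960). Of 23 genes of lipid handling, 4 were lower and 1 higher, against 3.84% and 1.53% of all genes. However, 1 was lower without ZT1 replicate 2, ZT13 replicate 2 or ZT13 replicate 3, and 2 without ZT1 replicate 5 or ZT13 replicate 4. The number higher was 0 without ZT13 replicate 2 and 2 without ZT1 replicate 2, ZT13 replicate 1 or ZT13 replicate 3. The lower ones included Fasn (fatty acid synthase, −0.98 ± 0.43) and Apoe (apolipoprotein E, −0.95 ± 0.44), with adjusted p of 0.836 and 0.879, and the higher one was Fabp4, a fatty acid binding protein of capillary endothelium and fat cells. Fabp4 had 89.0, 57.0, 45.1, 44.9 and 76.6 normalized counts at ZT1 and 210, 1544, 29.8, 437 and 163 at ZT13, the lowest value of all being an evening one (2.93 ± 0.85, adjusted p = 0.483, and 1.74 without ZT13 replicate 2). Of 22 interferon-stimulated and antigen presentation genes, 2 were higher and 0 lower, against 1.53% and 3.84% of all genes. The 2 were Tap2, a peptide transporter (309 to 539 against 506 to 2326, 1.27 ± 0.41, adjusted p = 0.547), and Bst2, which encodes tetherin (531 to 936 against 756 to 2441, 0.87 ± 0.36, adjusted p = 0.762). The number higher was 1 without ZT1 replicate 4, ZT13 replicate 2 or ZT13 replicate 5, 4 without ZT1 replicate 2 and 5 without ZT13 replicate 3. Without ZT13 replicates 2 and 5, 0 genes of this list were higher and 1 lower and its median went from 0.66 to 0.13, and Tap2 had 0.68 without ZT13 replicate 5.

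**Figure D4:**
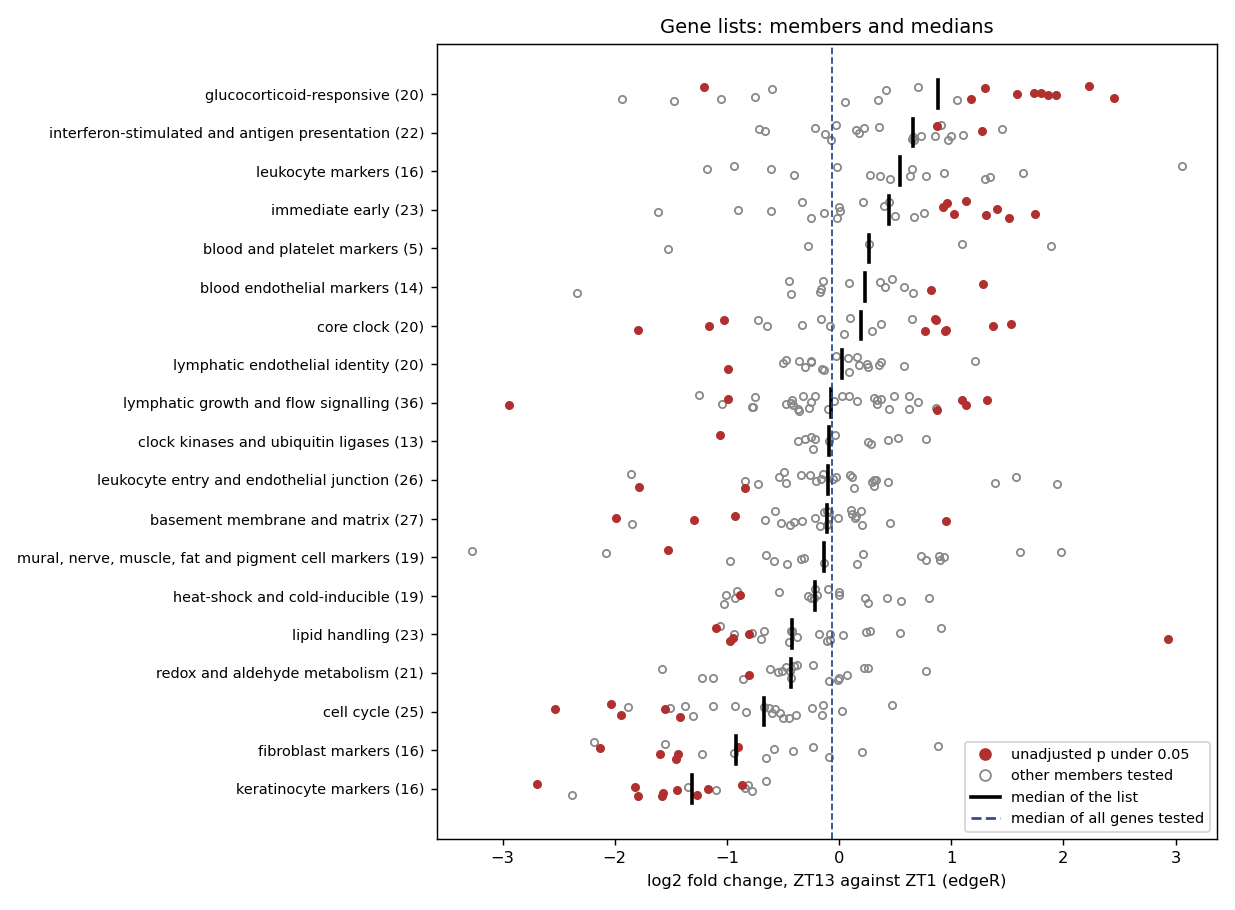
Log2 fold change of ZT13 against ZT1 (horizontal axis) for every tested member of 19 gene lists, ordered by median, with the number tested in parentheses, filled points for an unadjusted p under 0.05, black bars for list medians and a dashed line for the median of all 19209 genes tested (−0.06). The list medians run from −1.31 for keratinocyte markers to 0.88 for glucocorticoid-responsive genes.

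To ask whether the morning-to-evening difference is shared by the other pair of time points 12 h apart, the contrast of ZT13 with ZT1 was set against that of ZT19 with ZT7, which uses none of the same libraries. The difference of the contrasts passed the adjusted p in 11 of 19209 genes (0.0573%), and the ZT19 against ZT7 contrast itself in 3 (0.0156%). At an unadjusted p under 0.05 these shares were 14.3% and 19.7%. Of the 11 differences, 2 were above 0 and 9 below. The corresponding numbers were 2 and 2 with RLE scaling and 472 and 114 with DESeq2, a fit that also differed in scaling and filter. DESeq2 called 586 and 2619 genes for the difference and for ZT19 against ZT7, and with 1 library left out edgeR called 2 to 21 and 0 to 4. With the replicate number as a block edgeR called 2 and 0. Of the 11 genes, Dbp and Aldh3a1 were called with each of the 20 libraries left out in turn, Ccdc80 with 15 of them, Krt79 with 13, Fam131b and Sostdc1 with 10, Top2a and Enpp2 with 9, Tuba1c with 8, Ccnb1 with 6 and Col6a1 with 5. The share of reads on genes had a median of 17.5% at ZT7 and 64.0% at ZT19, against 24.8% at ZT1 and 22.9% at ZT13, and its part in these values was not tested. Dbp was higher at ZT13 than at ZT1 by its values (457 ± 70.6 against 237 ± 41.5, SD, n = 5) and fell from 766 ± 156 at ZT7 to 192 ± 60.1 at ZT19 (log2 fold change −1.99 ± 0.32, adjusted p = 0.0232), so that the contrasts differed by 2.94 (adjusted p = 0.00581). Aldh3a1 had the reverse order, at 2604 ± 610 and 1128 ± 526 at ZT1 and ZT13, and rose from 1495 ± 228 at ZT7 to 5655 ± 2105 at ZT19 (1.92 ± 0.35, adjusted p = 0.0431), a difference of −3.13 (adjusted p = 0.00581). Fam131b, named after its values were seen, had 19.9 ± 16.0 at ZT1, 49.7 ± 26.1 at ZT13 and 84.9 ± 66.7 at ZT7 and no counts in the ZT19 libraries, so that no size is given for its positive difference (adjusted p = 0.0315).

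The same order, lower at ZT13 than at ZT1 and higher at ZT19 than at ZT7 by their values, held for Top2a, Ccnb1, Tuba1c, Sostdc1, Krt79, Ccdc80, Col6a1 and Enpp2. Top2a had 1722 ± 925 normalized counts at ZT1, 297 ± 151 at ZT13, 358 ± 194 at ZT7 and 643 ± 226 at ZT19, so that the contrasts differed by −3.38 (adjusted p = 0.0363). Krt79 had 2732 ± 587, 920 ± 356, 1280 ± 720 and 3570 ± 1608 in the same order (−3.05, adjusted p = 0.0256), and Enpp2 1449 ± 500, 810 ± 255, 394 ± 126 and 1555 ± 810 (−2.82, adjusted p = 0.0356). For the glucocorticoid-responsive genes that rose from ZT1 to ZT13, the difference of contrasts did not pass the adjusted p (0.198 for Slc10a6, 0.213 for Fkbp5 and 0.129 for Cebpd). Slc10a6 had 952 ± 285 at ZT7 and 1780 ± 634 at ZT19, Fkbp5 455 ± 69.2 and 758 ± 329, and Cebpd 1351 ± 371 and 1414 ± 185, so that the evening mean was the highest of the 4 time points for all 3. Arntl, at 389 ± 149, 217 ± 106, 112 ± 76.9 and 350 ± 110 from ZT1 to ZT19, had its lowest mean in the evening (difference of contrasts −2.48, adjusted p = 0.166).

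**Figure D5:**
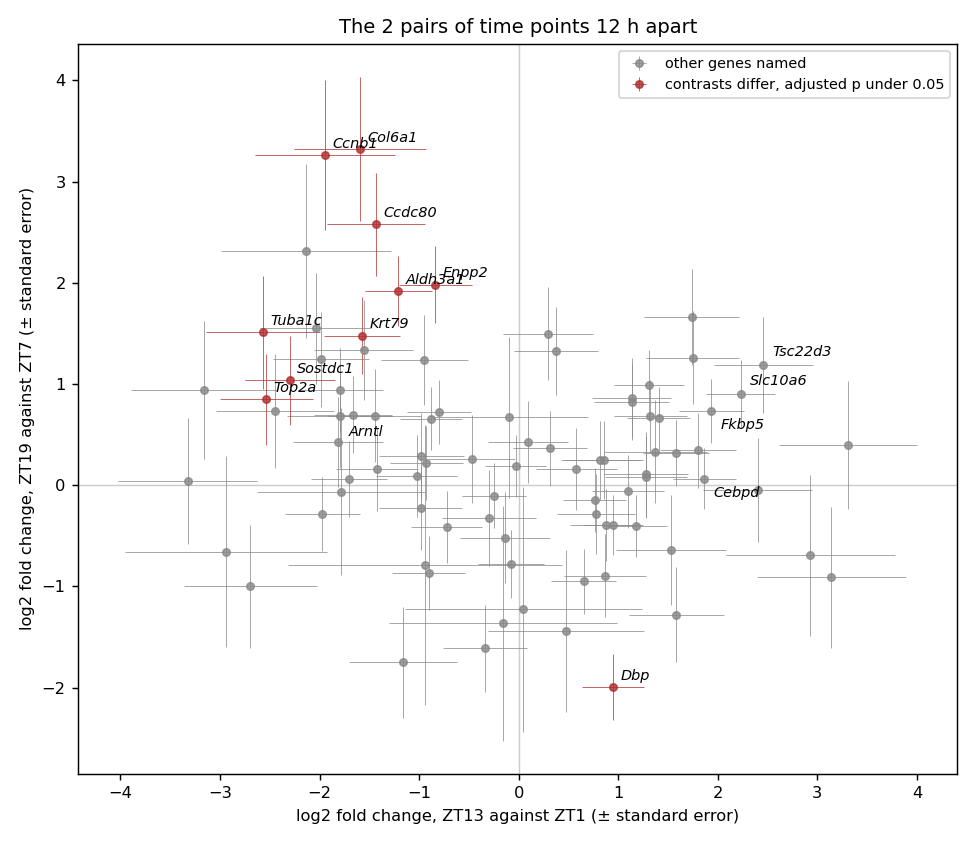
Log2 fold changes (± SE) of 87 of the genes named in the text, ZT13 against ZT1 on the horizontal and ZT19 against ZT7 on the vertical axis, with those whose contrasts differed at an adjusted p under 0.05 in red (10 of 11, as Fam131b had no counts at ZT19 and is not drawn). Dbp lies at the lower right, the other 9 red genes at the upper left, and Slc10a6 and Fkbp5 lie at the right above 0.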

How the data were processed

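RNA of sorted dermal LECs was sequenced at ZT1, ZT7, ZT13 and ZT19, with 5 libraries per time point, as full-length amplified cDNA read from a single end. Reads were aligned by the authors to mm10 (STAR), counted per gene with HTSeq-count (1.0.0) and deposited as raw counts per gene symbol, without normalization. The last lines of each file (reads on no gene, ambiguous, unaligned or not unique) made up 47.6% to 92.8% of the ZT1 and ZT13 files and were left out of library sizes. Libraries were grouped by their labels, which name no batch.

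Counts were fitted in R 4.3.3 with edgeR 4.0.16 (TMM, genes of low count filtered within time points, quasi-likelihood F-test) over all 20 libraries, and Benjamini-Hochberg adjusted over 19209 genes with a threshold of 0.05. SE is the log2 fold change divided by the square root of F. Amplified reads carry no molecular identifiers, so depth covers counting error only. Replicates are separate pools of mice, and same-numbered libraries were treated as unpaired, since the labels name no batch. Their deviations correlated at 0.0877 to 0.326, all above 0. A shared effect of the replicate number was not tested beyond the fits with a replicate block. Positions are from GENCODE M21 (GRCm38) and promoters from RefSeq. The script was tested on simulated data. The alternatives were DESeq2 1.42.0, other scaling and filters, the 10 libraries alone, a replicate block, covariates, thinned counts and left-out libraries.

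Genes were named by rule: those called, the 10 per direction with the smallest p among non-overlapping genes of at least 50 mean normalized counts, the core clock, and up to 4 per list with the smallest p, plus defining markers. Members and lists were chosen with earlier results of these data known. Dusp1, Errfi1, Ddit4, Aldh3a1, Ccnb1, F11r and Cdh5 fall outside this rule: they were picked with their values in view. Some genes that the rule names are not reported here.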

Additional observations from a re-analysis of the deposited data

Results flagged for a closer look

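In 15 of the 174 groups of 5 libraries (87 genes at ZT1 and at ZT13), 1 library lay apart from the rest on the log2 scale, so that its gap to the nearest library, as a share of the range of the group, was above Dixon's critical value. Chance gives this in about 1 of 20 groups, or 8.7 here. ZT1 replicate 5 was high for Fst (0.872), Smad7 (0.750) and Ripk4 (0.715), and low for Pmaip1 (0.793) and Tef (0.712), and ZT1 replicate 4 was low for Enpp2 (0.803). ZT13 replicate 5 was low for Alcam (0.850), Ptprc (0.814), Vwf (0.746), Npas2 (0.745) and Cdh5 (0.717), and of these Alcam, Ptprc and Npas2 were at 0 there, as were Rorb and Smad7. ZT13 replicate 2 was high for Pdpn (0.812), Cd300lg (0.771) and Bcl6b (0.755), and ZT13 replicate 4 for Mid1 (0.868).

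The ZT13 against ZT1 contrast differed from that of ZT19 against ZT7 by the test of the difference itself (edgeR, adjusted p) for Dbp (0.00581), Aldh3a1 (0.00581), Ccdc80 (0.0256), Krt79 (0.0256), Enpp2 (0.0356), Fam131b (0.0315), Sostdc1 (0.0363), Top2a (0.0363), Tuba1c (0.0410), Ccnb1 (0.0410) and Col6a1 (0.0410). Dbp was higher at ZT13 than at ZT1 and lower at ZT19 than at ZT7 by its means, as was Fam131b, and the other 9 had the opposite order in both pairs. In the 4 settings with all libraries (RLE, DESeq2, no filter on low counts and the replicate block), Dbp and Aldh3a1 were called in 4, Fam131b and Krt79 in 3 and the other 7 in 2.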

How the results depend on the processing

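The number of genes called between ZT13 and ZT1 (4) was 9 with RLE and with upper-quartile scaling, 77 with DESeq2, 8 with a minimum count of 50, 2 in a fit of the 10 libraries alone and 0 with keratinocyte and fibroblast scores as covariates. It was 0 to 7 with single libraries left out, and 0 without ZT13 replicates 2 and 5 in the fit of all libraries and in that of the 10. With the replicate number as a block it was 1 (Slc10a6), and 0 in the 10 libraries alone, where 822 genes had an unadjusted p under 0.05. The numbers were not taken to pair the libraries (correlations of 0.326, 0.266, 0.0973, 0.109 and 0.0877), and for 2 of the 5 numbers each library correlated best with its namesake. Leaving Lars2, Rn45s and Mir6236 out of the counts gave 8. This setting, the 10-library fit without ZT13 replicates 2 and 5, and the left-out libraries of the ZT7 and ZT19 comparisons were added after the data had been seen. Slc10a6, Fkbp5, Cebpd and Top2a were called in 16, 13, 11 and 8 of 24 alternatives. The count between ZT19 and ZT7 (3) was 2619 with DESeq2, 0 with the replicate block and 0 to 4 with single libraries left out. The count for the difference of contrasts (11) was 4 with RLE, 586 with DESeq2, 2 with the replicate block and 2 to 21 with single libraries left out. With upper-quartile scaling the unadjusted counts lower were 2 for fibroblast markers (reported as 5), 1 for lipid handling (4) and 1 for the core clock (3), and 5 interferon-stimulated genes were higher (2). The leukocyte marker median was −0.79 with the replicate block in the 10 libraries, over 10 genes tested. Cd300lg turned to −0.18 with the marker scores as covariates. The cause was not tested for any of these. Depth limits the low genes most, since 3 counts were a share of 7.142e-06% to 6.334e-05% of a library.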

Other observations

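Other gene groups gave values that belong to no result above. Of 13 clock kinases and ubiquitin ligases, 1 was lower and 0 higher at ZT13 at an unadjusted p under 0.05 (3.84% and 1.53% of all genes), Gsk3a (log2 fold change −1.06), with 0 lower without ZT1 replicate 2 or ZT13 replicate 3 and with upper-quartile scaling, and the median was −0.09. Csnk1d and Csnk1e, casein kinases that phosphorylate period proteins, had 0.29 and −0.22. Of 19 markers of mural, nerve, muscle, fat and pigment cells, 1 was lower, the pericyte proteoglycan Cspg4 (−1.52), with 2 lower without any one of ZT1 replicates 1 to 4 or without ZT13 replicate 3 and 0 without ZT13 replicates 2 and 5, and their summed normalized counts were 1594 to 4334 at ZT1 and 229 to 2129 at ZT13. Of 5 blood and platelet markers tested, none had an unadjusted p under 0.05, and the sums were 86.7 to 456 and 9.54 to 349.

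Across the 19209 genes tested, the log2 fold changes of ZT13 against ZT1 and of ZT19 against ZT7 had a correlation of −0.14, as a description only, since genes are not independent replicates. In both contrasts the median over genes was below 0 (−0.06 and −0.20).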
